A study of Mus musculus with 15 samples.

Results

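The subunits of the cytoplasmic dynein motor and of its cofactor dynactin were followed in ribosome profiling libraries of mouse embryonic stem cells (mESCs). The 10 genes were chosen by name as subunits of the complex, and each has 1 transcript among the 21727 transcripts of the count table. They comprise the heavy chain *Dync1h1*, the intermediate chain *Dync1i2*, the light intermediate chains *Dync1li1* and *Dync1li2*, the light chains *Dynll1*, *Dynll2*, *Dynlrb1* and *Dynlt3*, and the dynactin subunits *Dctn1* and *Dctn2*. All 10 passed the filter on low counts and were among the 10085 transcripts tested. The cells are E14Tg2a.4, an established mouse line. In the *Rps27-FLAG* line (clones 2b12, 2c3 and 2c4, named eS27-FLAG in the labels) both alleles of *Rps27* carry a 3xFLAG epitope before the stop codon, and in the *Rps27l-FLAG* line (clones 4a2, 4a3 and 4b7, eS27L-FLAG) both alleles of its paralog *Rps27l* carry it. The WT line (clones 5a1, 5a2 and 5a3) carries no tag. Both genes encode variants of the same protein of the small ribosomal subunit.

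Ribosome-protected fragments (RPFs) are the stretches of mRNA that a ribosome shields from RNase digestion, and their number on a coding sequence (CDS) reflects how many ribosomes were translating it. For each of the 9 clones a library was made of the fragments of all its ribosomes (total RPFs), and for each of the 6 tagged clones another of the fragments of those ribosomes that bound anti-FLAG beads (IP RPFs). This gave 15 libraries in 5 conditions of 3. All cultures were treated with cycloheximide, which stalls elongating ribosomes. The study asked whether ribosomes that contain Rps27 or Rps27l associate with different mRNAs. For this it compared the IP RPFs of the tagged lines with each other, normalised to the total RPFs of each clone. It also compared IP RPFs with total RPFs within each line, which is the comparison given first here. Each IP library has a total library of its own clone beside it. The replicate number also marks the pool in which barcoded fragments went through the later steps of library preparation. An IP library of untagged cells was not analysed here, so RNA that binds the beads without a tag has no measured level. More mRNA of a gene and more ribosomes per mRNA cannot be told apart in these counts.

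Dynein carries cargo along microtubules towards their minus ends. A pair of heavy chains forms its core, each with an ATPase motor and a long tail, and onto these tails the intermediate and light intermediate chains assemble. The light chains bind as dimers to the intermediate chains, while the light intermediate chains connect the motor to adaptor proteins that hold the cargo. Dynactin binds both the motor and these adaptors and allows long runs along the microtubule. In dividing cells the complex serves at kinetochores, at the spindle poles and in the positioning of the nucleus and the Golgi, and its heavy chain is among the longest proteins a cell makes.

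The libraries held between 3972152 and 8064166 counts, with 3972152 to 6673935 in the IP RPFs and 6313827 to 8064166 in the total RPFs. Counts were scaled to the library size after trimmed mean of M-values (TMM) normalisation within the IP and within the total libraries, and are given as normalised CPM (nCPM). All 10 of the 10 mESC markers checked, *Pou5f1*, *Nanog* and *Sox2* among them, were above 2 nCPM in every library, with medians from 94.5 to 987 nCPM. Of the 18 markers of fibroblasts, endoderm, mesoderm and neural cells, 4 were above 2 nCPM in every library. These were *Tubb3* and *Map2* of the neural list, *Thy1* of the fibroblast list and *Eomes* of the mesoderm list, with medians of 108, 13.4, 13.0 and 10.5 nCPM. *Tubb3* had more nCPM than the lowest mESC marker, but these values are not divided by CDS length and do not rank the genes. The median was 0 for *Postn* of the fibroblast list and *Afp* of the endoderm list. The summed level of the 5 neural markers was 132 to 138 nCPM in the IP libraries and 138 to 155 nCPM in the total libraries of *Rps27-FLAG*, and 118 to 124 against 131 to 141 nCPM in *Rps27l-FLAG*. The summed level of the 10 mESC markers was 4973 to 5031 nCPM in the IP and 4301 to 4579 nCPM in the total libraries of *Rps27-FLAG*, and 4935 to 5152 against 4328 to 4478 nCPM in *Rps27l-FLAG*. The part of either list in the IP results was not tested.

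The light chains of the LC8 family come from a pair of closely related genes, and their coding sequences are shown because the sequences decide whether fragments of either can be counted apart. Both sequences are 270 nt long and come from the GENCODE M21 transcripts of GRCm38. *Dynll1* lies at chr5:115297110-115300999 and *Dynll2* at chr11:87979525-87987533, both on the minus strand, each with a CDS in 2 coding exons. They are printed from the start codon to the stop codon, and capitals mark the bases at which they differ.
Dynll1: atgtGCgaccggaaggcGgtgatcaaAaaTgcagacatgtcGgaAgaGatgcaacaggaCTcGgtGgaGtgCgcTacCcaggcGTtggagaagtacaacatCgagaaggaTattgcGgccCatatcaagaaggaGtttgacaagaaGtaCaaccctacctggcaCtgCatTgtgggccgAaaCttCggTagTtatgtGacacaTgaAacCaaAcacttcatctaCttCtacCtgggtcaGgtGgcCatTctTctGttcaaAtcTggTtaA
Dynll2: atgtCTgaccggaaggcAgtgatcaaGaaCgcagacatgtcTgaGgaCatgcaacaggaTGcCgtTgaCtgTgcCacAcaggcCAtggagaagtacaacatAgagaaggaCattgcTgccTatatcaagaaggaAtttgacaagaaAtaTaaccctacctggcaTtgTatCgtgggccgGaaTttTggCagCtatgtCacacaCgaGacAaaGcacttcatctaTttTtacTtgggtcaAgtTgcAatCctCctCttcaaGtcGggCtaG
The sequences were 81.1% identical and differed at 51 positions, 46 of them the last base of a codon. The longest stretch without a difference was 16 nt. None of the 243 windows of 28 nt, about the length of a fragment, occurred in both sequences. Of the *Dynll1* windows, 33 (13.6%) also occurred in *BC048507*, a separate transcript of the table, and fragments from these windows could not have been assigned to *Dynll1* alone. No window of the other 9 transcripts occurred elsewhere among the transcripts of the table. The first 45 nt and the last 15 nt of each CDS were not counted, which left 210 nt of these light chain sequences and 13875 of the 13935 nt of *Dync1h1*.

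The members were first compared by their footprint density, the nCPM per kb of counted CDS, because long sequences collect more fragments. In the total RPFs the median density over the 9 libraries was highest for *Dynll1*, with 366 nCPM per kb, and *Dynlrb1*, the roadblock light chain, followed with 234. *Dynll2* stood at 168 and *Dctn2*, which encodes the dynactin subunit dynamitin, at 156. *Dync1i2* had 127 and *Dync1li1* 121 nCPM per kb. The heavy chain *Dync1h1* came next with 72.7, ahead of *Dync1li2* with 34.5, *Dctn1* with 19.2 and *Dynlt3* with 9.61. The members thus covered most of the range of expressed mRNAs, from the 95.8th percentile of the tested transcripts for *Dynll1* to the 26.5th for *Dynlt3*.

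Most steps of this order held in each library. *Dynll1* lay above *Dynlrb1* in 9 of 9 total libraries, and so did each of *Dctn2*, *Dync1i2*, *Dync1li1*, *Dync1h1*, *Dync1li2* and *Dctn1* above the next member. *Dynlrb1* and *Dynll2* kept their order in 7 of 9 libraries. *Dynll2* and *Dctn2* did not differ beyond their spread, with *Dynll2* above in 4 of 9, and over the whole CDS length *Dctn2* came first. The step from *Dync1i2* to *Dync1li1* was small, a ratio of medians of 1.05, though its direction was the same in all 9. In the IP RPFs the order of the 10 medians was the same.

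**Figure D1:**
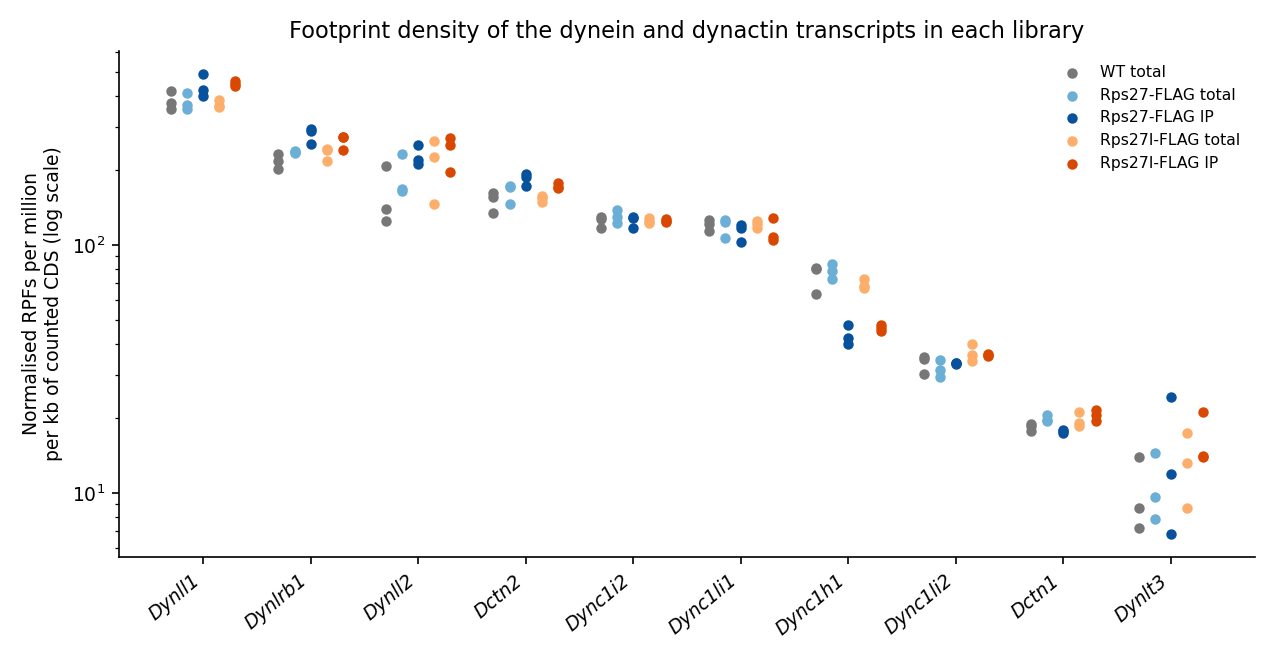
Normalised RPFs (nCPM) per kb of counted CDS (log scale) for the 10 transcripts, in the order of their median in the total RPFs, with 1 point for each of the 15 libraries coloured by condition. For *Dync1h1* the 9 total libraries lie between 63.5 and 84.1 and the 6 IP libraries at 47.5 or lower.

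Paralogs with the same role differed in density. The light intermediate chain *Dync1li1* had 3.11 to 4.20 times the density of *Dync1li2* in the total libraries (median 3.56, n = 9) and 2.89 to 3.63 times in the IP libraries (median 3.30, n = 6). For the LC8 pair the ratio of *Dynll1* to *Dynll2* was less even, from 1.39 to 2.98 with a median of 2.18 in the total libraries. Within dynactin, *Dctn2* had 7.13 to 8.89 times the density of *Dctn1*, which encodes p150Glued, the subunit that contacts microtubules and the dynein intermediate chain. Against its heavy chain, the intermediate chain *Dync1i2* had 1.57 to 1.88 times the density in the total libraries and 2.62 to 3.05 times in the IP libraries. These ranges did not overlap. The ratios of *Dynlrb1* (2.51 to 3.68 against 5.38 to 6.86) and *Dynll1* (4.35 to 5.64 against 8.86 to 11.7) to *Dync1h1* did not overlap either. These ratios share *Dync1h1* as their denominator and are not separate results. Its own level was 44.9% lower in the IP of *Rps27-FLAG* and 33.4% lower in that of *Rps27l-FLAG*. How many other transcripts would separate from *Dync1h1* in this way was not counted.

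A pair of light chains varied more between libraries than the other members. The coefficient of variation of the density over the 9 total libraries was 25.6% for *Dynll2* and 32.1% for *Dynlt3*, a Tctex-type light chain, beside 4.75% to 9.73% for the other 8. *Dynll2* stood at 208, 125 and 140 nCPM per kb in WT replicates 1, 2 and 3, at 232, 168 and 165 in the *Rps27-FLAG* total libraries and at 262, 226 and 146 in those of *Rps27l-FLAG*. Replicate 1 held the highest value in each of the 5 conditions, IP libraries included, and the same was true of *Dynlt3*. *Dync1i2* was lowest in replicate 1 in all 5 conditions and *Dync1h1* in 4 of 5. How often other transcripts follow the replicate number like this was not counted. The IP and total libraries of a clone share its cells, so the 5 conditions are not independent. Averaged over the 5 libraries of a replicate number, *Dynll2* had 51.4, 41.7 and 36.1 nCPM in replicates 1, 2 and 3, and *Dynlt3* had 5.32, 2.93 and 2.99. Because library pool and clone change together, which of them moves with these values cannot be told apart. *Dynlt3* rested on few fragments, between 11 and 49 counts in a library.

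The heavy chain was the member with the largest difference between IP and total RPFs in either line. *Dync1h1* lies at chr12:110601452-110666945 on the plus strand, with a CDS of 13935 nt in 77 coding exons. In *Rps27-FLAG* its total RPFs stood at 1008, 1167 and 1086 nCPM in replicates 1, 2 and 3, and its IP RPFs at 555, 659 and 583 nCPM. All 3 IP libraries lay below all 3 total libraries, with means of 599 ± 53.8 and 1087 ± 79.5 nCPM (SD, n = 3). The log2 fold change of IP over total, fitted with edgeR, was -0.86 with a standard error (SE) of 0.085 and an adjusted p of 0.00164, which is a level 44.9% lower in the IP. In *Rps27l-FLAG* the total libraries had 930, 1008 and 947 nCPM and the IP libraries 641, 659 and 622 nCPM. Here too the groups did not overlap, and the log2 fold change was -0.59 (SE 0.049, adjusted p = 0.00329), a level 33.4% lower in the IP. Such separation was not counted over all tested transcripts, here or for the members below. *Dync1h1* ranked 57th from the lowest of 10085 log2 fold changes in *Rps27-FLAG* and 159th in *Rps27l-FLAG*. It was the only member past the threshold, an adjusted p under 0.05, in either line. This is 1 of 10 members lower in the IP in each line, where 5.34% of all tested transcripts were lower in *Rps27-FLAG* and 2.27% in *Rps27l-FLAG*. None of the 10 was higher by this test, beside 0.327% and 0.833% of all transcripts, and 3 of the 10 had an unadjusted p under 0.05 in each line, *Dync1h1* included, where 22.1% and 17.4% of all transcripts did.

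**Figure D2:**
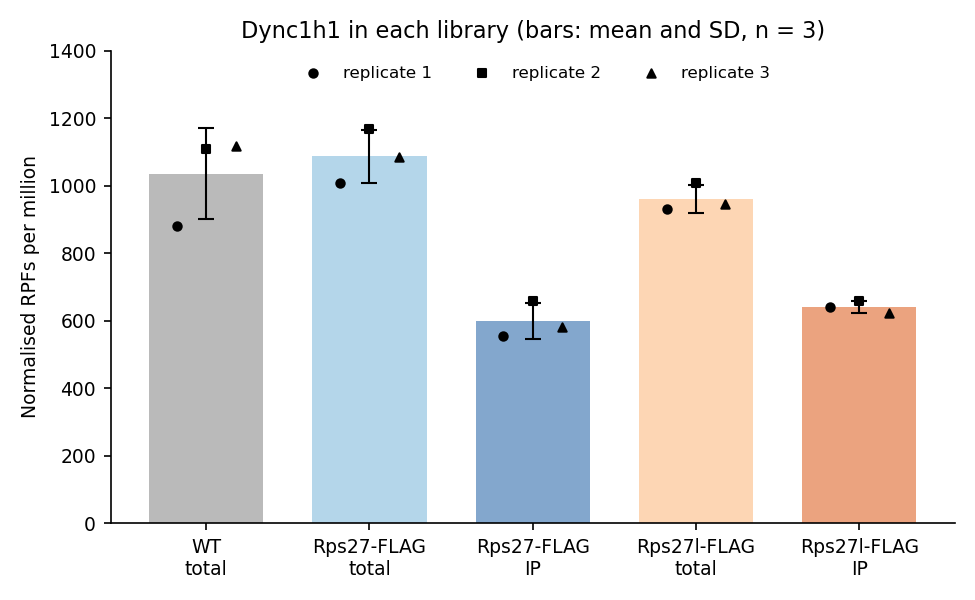
*Dync1h1* in normalised RPFs (nCPM) for each of the 5 conditions, with bars for the mean, error lines for the SD of 3 clones and a symbol for each replicate. The IP libraries lie between 555 and 659 and the total libraries between 880 and 1167.

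As the most heavily sequenced member, *Dync1h1* set the share of the whole group. It held 51.2% to 55.9% of the members' counts in the total libraries and 38.0% to 41.7% in the IP libraries. Together the 10 transcripts took 0.170% to 0.204% of a total library and 0.149% to 0.159% of an IP library. The fold change of *Dync1h1* kept its direction in every fit, but without the clone as a block its call depended on which clones were included. When clone 2c3 or 2c4 of *Rps27-FLAG* (replicates 2 and 3) was left out, the adjusted p was 0.115 and 0.122. When clone 4a2 or 4a3 of *Rps27l-FLAG* (replicates 1 and 2) was left out it was 0.112 and 0.25, while the log2 fold changes stayed within -0.88 to -0.84 and -0.61 to -0.56. In those 4 fits no transcript of the table passed the threshold. With the clone as a block, which compares each IP library with the total library of its own clone, *Dync1h1* passed it in every one of these fits, an alternative chosen after seeing the data.

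The block also changed the calls of other members. With it 2 of the 10 were lower in the *Rps27-FLAG* IP (22.9% of all transcripts) and 4 higher (18.3%), and in *Rps27l-FLAG* 1 was lower (19%) and 3 were higher (12%). The values of these members follow, with the block beside the fit without it.

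**Figure D3:**
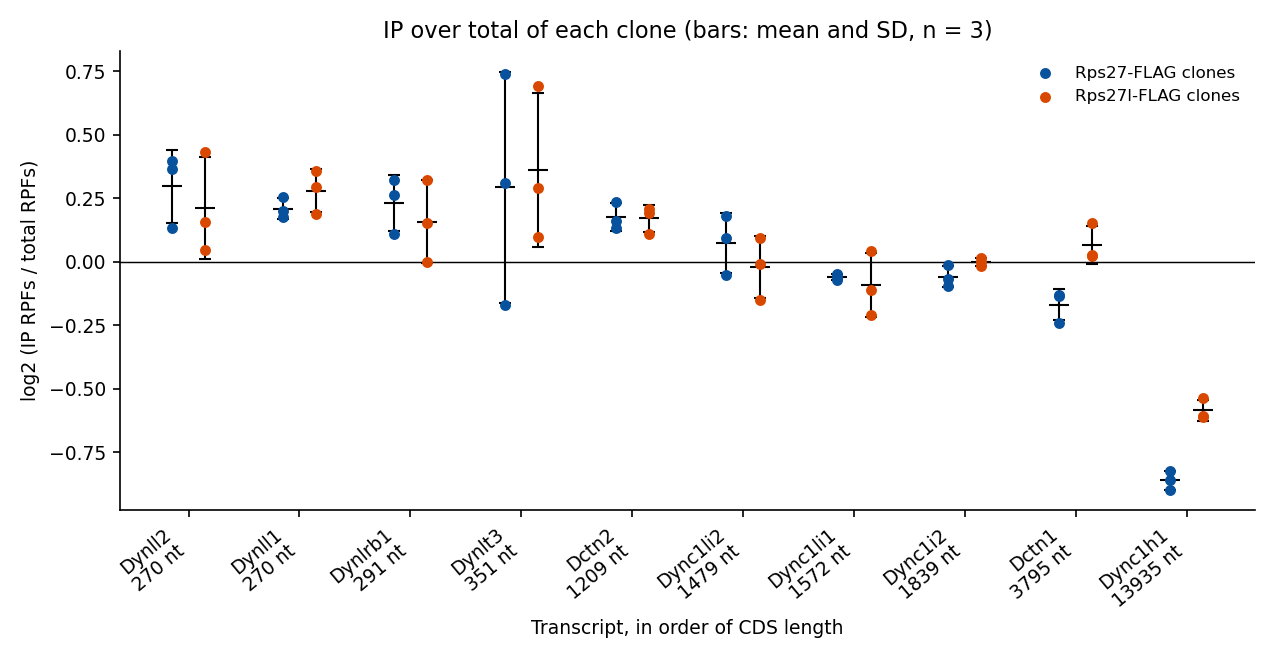
log2 ratio of IP to total RPFs of each clone for the 10 transcripts in order of CDS length, with the mean and SD of the 3 clones of each tagged line. Most points of the short light chains lie above 0, with *Dynlt3* reaching down to -0.17 and *Dynlrb1* to -0.0011. *Dync1h1*, the longest, reaches -0.90.

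The chains between the heavy chain and its cargo showed no difference that passed the test. *Dync1i2*, whose product links the heavy chain to the light chains and to dynactin, had log2 ratios of IP to total of -0.07, -0.10 and -0.02 in the 3 *Rps27-FLAG* clones, and 0.01, -0.0012 and -0.02 in the *Rps27l-FLAG* clones. Its fitted log2 fold changes were -0.06 (SE 0.071, adjusted p = 0.668) and -0.0024 (SE 0.054, adjusted p = 0.991). *Dync1li1* had log2 fold changes of -0.06 and -0.09, with all 3 *Rps27-FLAG* clones between -0.07 and -0.05 and the *Rps27l-FLAG* clones spread from -0.21 to 0.04. For *Dync1li2* they were 0.07 and -0.02, and clones of both lines lay on either side of 0. None of the 3 transcripts was past the threshold in either line, with or without the block, and their SEs without it lay between 0.054 and 0.091. With the block, *Dync1li1* was lower in the *Rps27l-FLAG* IP in 1 of the 3 fits that left out a clone (adjusted p = 0.0066, without replicate 3). In that fit 1546 of the 10085 transcripts were lower.

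The short light chain transcripts stood higher in the IP than in the total RPFs of most clones, and whether they passed the threshold depended on the block and on the clones included. *Dynll1* had 74.5, 76.9 and 86.4 nCPM in the *Rps27-FLAG* total libraries and 84.0, 88.3 and 103 nCPM in the IP libraries of replicates 1, 2 and 3. In *Rps27l-FLAG* the total libraries had 76.3, 75.2 and 80.8 nCPM and the IP libraries 93.4, 96.3 and 92.0 nCPM. The IP library was above the total library of its clone in all 6, and the groups overlapped in *Rps27-FLAG* alone. The log2 fold changes were 0.21 (SE 0.097, adjusted p = 0.255) and 0.28 (SE 0.069, adjusted p = 0.0737). With the clone as a block they were 0.21 (SE 0.050, adjusted p = 2.89e-04) and 0.28 (SE 0.052, adjusted p = 1.10e-05).

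*Dynlrb1*, at chr2:155236535-155250277, lay above its total RPFs by log2 ratios of 0.11, 0.32 and 0.26 in the *Rps27-FLAG* clones, while the *Rps27l-FLAG* clones had 0.15, 0.32 and -0.0011. The fits gave 0.23 (SE 0.081, adjusted p = 0.148) and 0.16 (SE 0.089, adjusted p = 0.421). With the block they were 0.22 (adjusted p = 0.00113) and 0.17 (adjusted p = 0.0434), calls that were kept in 2 and in 1 of the 3 fits that left out a clone. Without the block, *Dynlrb1* passed the threshold in *Rps27-FLAG* when replicate 1 was left out (0.28, adjusted p = 0.0274). In that fit 623 of the 10085 transcripts were higher in the IP, beside 33 in the fit with all 3 clones. *Dynll2*, the other LC8 light chain, had clone ratios of 0.13, 0.40 and 0.36 in *Rps27-FLAG* and of 0.04, 0.16 and 0.43 in *Rps27l-FLAG*. All 6 were above 0, with log2 fold changes of 0.28 (SE 0.15, adjusted p = 0.312) and 0.18 (SE 0.21, adjusted p = 0.743). With the block only the *Rps27-FLAG* value passed the threshold (0.27, adjusted p = 7.07e-04), and in *Rps27l-FLAG* the adjusted p was 0.0693, with a call in 1 of the 3 fits that left out a clone (adjusted p = 0.0296). Without the block and without replicate 1, *Dynll2* also passed in *Rps27-FLAG* (0.37, adjusted p = 0.020), in the same fit with 623 higher transcripts. *Dynlt3* had clone ratios from -0.17 to 0.74, an SE of 0.46 in *Rps27-FLAG* without the block and no call in any of these fits.

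The dynactin subunits lay on opposite sides of 0 in the *Rps27-FLAG* IP. *Dctn1* (chr6:83165951-83200117, CDS of 3795 nt) had 76.6, 72.8 and 73.2 nCPM in the *Rps27-FLAG* total libraries and 64.8, 66.2 and 66.8 nCPM in the IP libraries, so that the groups did not overlap. In *Rps27l-FLAG* it had 71.7, 69.3 and 79.2 nCPM in the total and 72.7, 76.9 and 80.5 nCPM in the IP libraries, which overlapped. The log2 fold changes were -0.17 (SE 0.065, adjusted p = 0.177) and 0.06 (SE 0.082, adjusted p = 0.775). With the block the *Rps27-FLAG* value was -0.18 (SE 0.055, adjusted p = 0.00578), a call that was kept in 2 of the 3 fits that left out a clone.

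*Dctn2* (chr10:127266387-127281950), whose product holds p150Glued on the dynactin filament, stood above its total RPFs in all 6 clones. The clone ratios were 0.24, 0.16 and 0.13 in *Rps27-FLAG* and 0.19, 0.21 and 0.11 in *Rps27l-FLAG*. The log2 fold changes were 0.17 in both lines (SEs 0.085 and 0.058, adjusted p = 0.277 and 0.181). With the block they were 0.18 and 0.17 (SEs 0.034 and 0.036, adjusted p = 1.49e-06 and 9.39e-05), and the calls were kept in all 3 fits that left out a clone of either line. *Dctn2* had 9.92 to 10.9 times the density of *Dctn1* in the *Rps27-FLAG* IP libraries against 7.13 to 8.89 times in the total libraries. In *Rps27l-FLAG* these ranges were 7.86 to 9.09 and 7.40 to 8.06 and overlapped.

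The order of the members' log2 fold changes in the IP followed the length of their CDS in large part. An exception in *Rps27l-FLAG* was *Dctn1*, with a CDS of 3795 nt. Its 0.06 lay above the values of the shorter *Dync1i2*, *Dync1li1* and *Dync1li2*, which were -0.0024, -0.09 and -0.02. Over the 10 members Spearman's rho between CDS length and log2 fold change was -0.894 in *Rps27-FLAG* and -0.790 in *Rps27l-FLAG*. Over the 10082 tested transcripts with a CDS length it was -0.562 and -0.527. These values describe transcripts measured in the same libraries, which are not independent. The members span nearly the whole range of lengths, from 270 nt for *Dynll1* and *Dynll2* to 13935 nt for *Dync1h1*, beside a median of 1443 nt for all tested transcripts, and 24 tested transcripts have a longer CDS than *Dync1h1*.

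**Figure D4:**
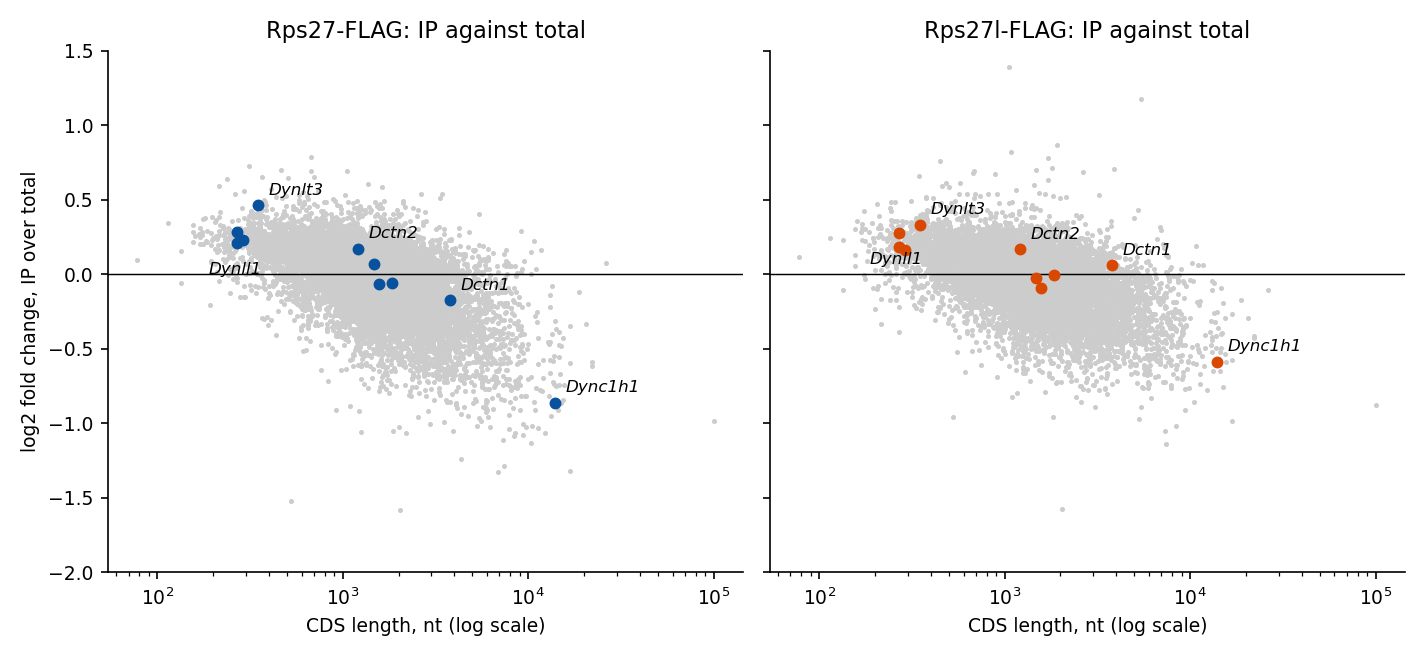
log2 fold change of IP over total RPFs against CDS length (log scale) for the 10082 tested transcripts with a length (grey) and the 10 members (colour), for *Rps27-FLAG* on the left and *Rps27l-FLAG* on the right. *Dync1h1* sits at the lower right end of the cloud, at -0.86 and -0.59, and the light chains at its upper left.

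The fits were therefore repeated with the length trend taken out. For each library a smooth curve of the deviation of log2 nCPM against CDS length was estimated over all tested transcripts and removed before the test. *Dync1h1* then had a log2 fold change of -0.37 in *Rps27-FLAG* (SE 0.064, adjusted p = 0.0360), which put it at the 6.76th percentile of all transcripts, in place of the 0.555th. In *Rps27l-FLAG* it had -0.21 (SE 0.052, adjusted p = 0.174) and lost its call. Of all transcripts 1.31% and 0.0397% were lower in this fit. With the clone as a block as well, both values passed the threshold (-0.37, adjusted p = 3.02e-29, and -0.21, adjusted p = 7.00e-08). In that fit 18.3% of all transcripts were lower and 12.2% higher in the *Rps27-FLAG* IP, and 13.1% lower and 9.06% higher for *Rps27l-FLAG*. Under both corrections *Dctn2* remained above its total RPFs, by 0.15 in *Rps27-FLAG* and 0.16 in *Rps27l-FLAG* (adjusted p = 1.87e-04 and 8.98e-04). *Dctn1* was higher in the *Rps27l-FLAG* IP (0.22, adjusted p = 0.00243) and had 0.02 in *Rps27-FLAG* (adjusted p = 0.828), where it had been lower before. With the length trend removed but no block, neither passed. The adjusted p was then 0.528 and 0.375 for *Dctn2*, and 0.400 for *Dctn1* in *Rps27l-FLAG*. The short light chains lost their calls, and *Dynll1*, *Dynll2* and *Dynlrb1* lay between -0.06 and 0.06. Few sequences are as long as *Dync1h1*, and the curve at each length was fitted over a span of 0.5 of the tested transcripts. At that end it therefore rests mostly on shorter transcripts. Whether part of the length trend remains in the values of *Dync1h1* was not tested.

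**Figure D5:**
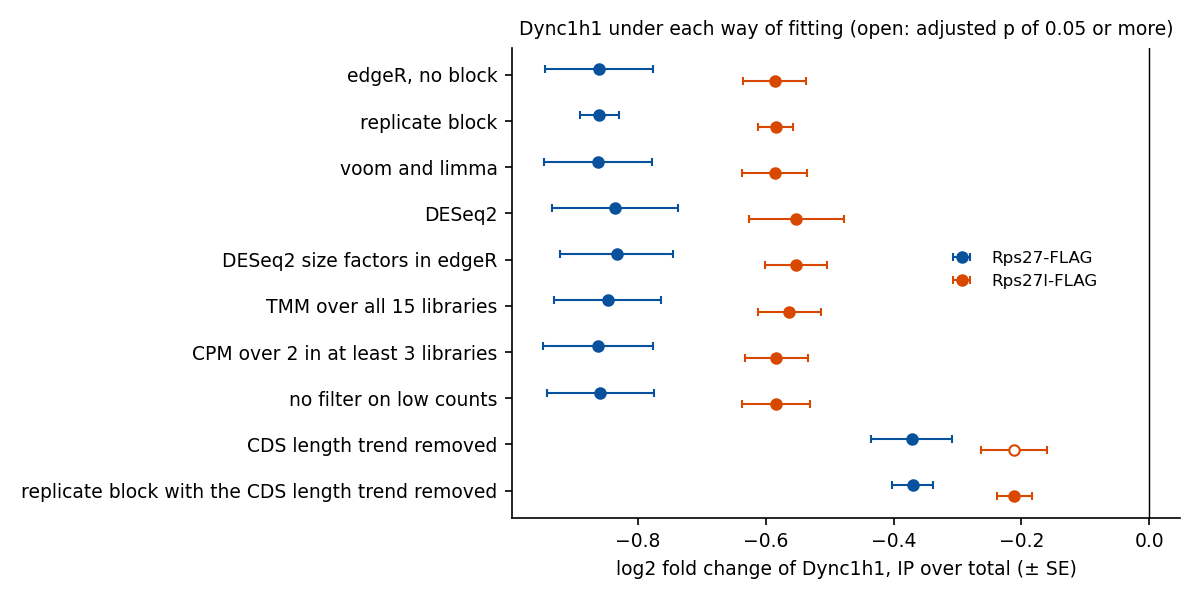
log2 fold change of *Dync1h1* between IP and total RPFs, with its SE, under 10 ways of fitting each tagged line; filled points passed the threshold on the adjusted p. The values lie between -0.86 and -0.83 and between -0.59 and -0.55 in 8 of the 10 and move towards 0 only in the 2 that remove the trend with CDS length.

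The lines differed in how far the heavy chain fell. The difference between their IP effects was tested in 1 fit of the 12 libraries of the tagged lines, with the clone as a block and a limit of 0.25 on the absolute log2 difference, and positive values stand for a higher IP to total ratio in *Rps27l-FLAG*. Within replicates 1, 2 and 3 the log2 ratio of *Dync1h1* was -0.86, -0.83 and -0.90 in *Rps27-FLAG* and -0.54, -0.61 and -0.61 in *Rps27l-FLAG*. All clones of *Rps27l-FLAG* lay above all clones of *Rps27-FLAG*, and the fitted difference was 0.28 (SE 0.040, adjusted p = 3.66e-07 from edgeR). The share of all tested transcripts whose clones lie apart in this way was not counted. The difference was 0.32, 0.21 and 0.29 between the lines' clones of the same replicate number. *Dync1h1* was the only member past both limits, 1 of 10 beside 0.466% of all tested transcripts that were higher in *Rps27l-FLAG*. It kept its call in each of the 6 fits that left out a clone, with differences from 0.251 to 0.296, all close to the limit of 0.25. Without the block the difference was 0.27 with a SE of 0.10 and an adjusted p of 1. With the length trend removed it was 0.16 (SE 0.041, adjusted p = 0.0194) and no longer past the limit. *Dctn1* had a difference of similar size, 0.24 (SE 0.078, adjusted p = 0.100), with all 3 *Rps27-FLAG* clones below 0 and all 3 *Rps27l-FLAG* clones above 0, and it did not pass the test. The other 8 members had differences between -0.15 and 0.08 and unadjusted p-values of 0.193 or more. The summed level of the 5 endoderm markers was 6.39 to 14.6 nCPM in the *Rps27l-FLAG* libraries, 1.61 to 6.06 nCPM in those of *Rps27-FLAG* and 2.66 to 6.72 nCPM in WT, and its part in the difference was not tested.

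In the total RPFs no member passed the test between the lines. The 3 pairwise comparisons were made in 1 fit of the 9 libraries and share them. Of the 10085 transcripts, 0% passed the threshold in *Rps27-FLAG* against WT, in *Rps27l-FLAG* against WT or between the tagged lines, while 294, 574 and 580 transcripts had an unadjusted p under 0.05, none of the 10 members among them. DESeq2 called 0 transcripts in each. The fit with the replicate number as a block called 1, 144 and 137 transcripts but 0 of the 10 members, whose lowest unadjusted p-values there were 0.00472 for *Dynll2* in *Rps27l-FLAG* against WT (adjusted p = 0.137) and 0.00771 for *Dync1h1* between the tagged lines (adjusted p = 0.161). *Dync1h1* stood at 1036 ± 134, 1087 ± 79.5 and 962 ± 41.1 nCPM (SD, n = 3) in WT, *Rps27-FLAG* and *Rps27l-FLAG*. The WT libraries, at 880, 1109 and 1117 nCPM, spanned a wider range than those of either tagged line. Against WT its log2 fold changes were 0.07 and -0.11, both with an SE of 0.091. *Dynll2* had the highest point estimate of the members against WT, 0.26 and 0.43 in the 2 tagged lines, both with an SE of 0.24, and its libraries overlapped between the lines. Between the tagged lines the members lay from -0.18 for *Dync1h1* to 0.30 for *Dynlt3*.

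The other genes of the pathway were followed in 4 lists. Of 6 further subunit genes of cytoplasmic dynein, 3 are in the table and none passed the filter. *Dync1i1*, the intermediate chain best known from neurons, had 4 to 19 counts in a library. *Dynlt1a* and *Dynlt1b*, Tctex light chains, had 0 counts in all 15 libraries. Of the windows of 28 nt of each, 93.3% also occur in the other, so that fragments from these windows would not have been assigned uniquely. The part of this overlap in the 0 counts was not tested. The 5 subunits of dynein 2, the motor of transport within cilia, were all tested, and 1 fell in the *Rps27-FLAG* IP, its heavy chain *Dync2h1*, with a CDS of 12921 nt, 71 to 221 counts in a library and a log2 fold change of -0.81 (SE 0.16, adjusted p = 0.0305). It did not pass with the length trend removed (-0.34, adjusted p = 0.366). In *Rps27l-FLAG* 0 of the 5 passed, and with the block *Dync2h1* alone was lower in both lines. Of all tested transcripts 5.34% were lower in *Rps27-FLAG* and 2.27% in *Rps27l-FLAG*, and with the block 22.9% and 19%. The medians of the list were -0.10 and -0.19 beside -0.01 and -0.03 for all tested transcripts. None of the 10 other dynactin subunits passed in either line, with medians of 0.08 and -0.02. With the block 4 of these 10 had a higher and 3 a lower level in the *Rps27-FLAG* IP, and for *Rps27l-FLAG* these counts were 2 and 2, beside the shares of 18.3% and 22.9%, and of 12% and 19%, of all transcripts.

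Of 21 regulators and cargo adaptors, 20 were tested and 1, *Kntc1*, fell in each line. Of all tested transcripts 5.34% were lower in *Rps27-FLAG* and 2.27% in *Rps27l-FLAG*. *Kntc1* encodes a subunit of the complex that recruits dynein to kinetochores and has a CDS of 6624 nt. Its log2 fold changes were -0.74 (SE 0.065, adjusted p = 0.00128) and -0.58 (SE 0.067, adjusted p = 0.00586). With the length trend removed they were -0.41 (adjusted p = 0.0332) and -0.33 (adjusted p = 0.101). The medians of this list were -0.10 and -0.04. The block gave 2 higher and 8 lower genes for *Rps27-FLAG* against 3 and 5 for *Rps27l-FLAG*, of 20 genes in each case, where 18.3% and 22.9%, and 12% and 19%, of all transcripts were higher and lower. After *Kntc1* the lowest p-values with the block in *Rps27-FLAG* were those of *Pafah1b1*, which encodes the dynein regulator Lis1, at -0.20 (adjusted p = 7.83e-09), and *Numa1*, which anchors dynein at spindle poles and the cell cortex, at -0.22 (adjusted p = 5.22e-08), while in *Rps27l-FLAG* they had -0.0012 and -0.01 and no call. *Nudc*, a chaperone linked to dynein function, was higher in both lines, by 0.14 (adjusted p = 2.76e-05) and 0.21 (adjusted p = 4.98e-08). In the comparison of the lines and in the 3 comparisons of total RPFs, 0 genes of these lists passed. *Pafah1b1* and *Numa1* had differences between the lines of 0.20 and 0.21, with adjusted p-values of 0.00346 and 0.0160, and stayed under the limit of 0.25 on their size.

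Across the 15 libraries the log2 level of *Dync1h1* correlated most closely with those of *Mdn1* (r = 0.988), *Myo5a* (0.985), *Rif1* (0.985), *Prkdc* (0.984) and *Smc3* (0.984). These 5 transcripts have a CDS of 3654 to 16749 nt, all longer than the median of 1443 nt, and the 6 IP and 9 total libraries are the main contrast among the points. Among the members, the level of *Dync1h1* correlated with *Dync1li1* (r = 0.470) and *Dync1i2* (0.381) and ran against *Dynlrb1* (-0.783) and *Dynll1* (-0.682). Within the 9 total libraries alone it correlated with *Dync1i2* (0.826) and *Dctn2* (0.770) and ran against *Dynlt3* (-0.737), *Dynll2* (-0.582) and *Dynlrb1* (-0.451). The sign for *Dctn2* had been negative over the 15 libraries (-0.542), and that for *Dynll1* changed too (0.487). These are descriptions over libraries of 3 pools, without a test.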

How the data were processed

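Ribosome-protected fragments of 15 libraries (9 total, 6 IP) were analysed. Per the submitters' processing notes, the authors trimmed reads with cutadapt 2.4, removed duplicates by molecular identifiers with UMI-tools 1.0.1 and used Bowtie2 2.3.4.3 to remove ribosomal RNA and to align to transcripts of GRCm38, keeping unique alignments. They deposited unnormalised counts of ribosomal A sites per CDS, without the first 15 and last 5 codons. All 15 count columns were used.

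Transcripts were annotated with GENCODE M21, in which 21723 of 21727 have an entry. Not tested were 13 mitochondrially encoded transcripts and, in the comparison of IP effects, *Tmod3*, which the study also set aside. Transcripts with CPM over 2 in at least 14 libraries (10085) were tested in R 4.3.3 with edgeR 4.0.16 (glmQLFit and glmQLFTest), TMM within each fraction, Benjamini-Hochberg adjustment over all tested transcripts and a threshold of 0.05. For IP against total the fit had no block, as in the study's design matrix. Both libraries of a clone share its cells, and their deviations from the group means correlated with r from 0.468 to 0.790 in the 6 clones, so the fit with the clone as a block is given beside it. Log2 ratios of single clones used 0.5 added counts. Alternatives were limma 3.58.1 with voom, DESeq2 1.42.0, other normalisations and filters, removal of the CDS length trend (loess, span 0.5) and each clone left out. The tests were tried on simulated counts, drawn for each library on its own without an effect of the clone. The simulation therefore cannot decide between the fits with and without the block. Replicates are separate clones. Without the block the p-values measure the spread between clones, and with the clone as a block the spread of their IP to total differences. In either case the spread is estimated partly from all tested transcripts, and with the clone as a block mostly from them. For *Dync1h1* in *Rps27-FLAG* the edgeR F-test gave an SE of 0.085 and an unadjusted p of 7.44e-06 without the block. With the block it gave an SE of 0.031 and an unadjusted p of 4.14e-171. The very small p-values of the blocked fits are thus not a measure of the spread of 3 clones alone. With the block 4154 and 3128 of the 10085 transcripts passed for *Rps27-FLAG* and *Rps27l-FLAG*. Members, lists and alternatives were chosen with earlier results of these data known. Genes named were all 10 members, the list genes past the threshold (at most 4 by the lowest p) and the 5 transcripts most correlated with *Dync1h1*. Python 3.11.15, pandas 2.3.3 and matplotlib 3.10.9 drew the figures.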

Additional observations from a re-analysis of the deposited data

Results flagged for a closer look

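The IP effect of *Dync1h1* differed between the tagged lines by a log2 difference of 0.28 in the test of the difference itself, with all 3 *Rps27l-FLAG* clones above all 3 *Rps27-FLAG* clones. The share of all tested transcripts with such separate clones was not counted. The total RPFs of *Dync1h1* differed by -0.18 between the lines (*Rps27l-FLAG* over *Rps27-FLAG*; standard error 0.091, adjusted p = 0.803), and these libraries also enter the ratios. The part of CDS length and of the total RPFs in this difference was not tested beyond the fit with the length trend removed, in which it was 0.16.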

How the results depend on the processing

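The number of members past the threshold was 1 in each IP comparison and in the comparison of the lines, and 0 in the total RPFs. With the replicate block it was 6 for *Rps27-FLAG* and 4 for *Rps27l-FLAG*, and with the block and the length trend removed 2 and 3, with the shares of all transcripts given above. Removing the length trend alone gave 0 for *Rps27l-FLAG*, and 0 for the comparison of the lines, which also gave 0 without the replicate block. Leaving out a clone gave 0 to 3 for *Rps27-FLAG* and 0 to 1 for *Rps27l-FLAG* without the block. In these fits 0 to 1809 and 0 to 318 of the 10085 transcripts passed. With the block, in an alternative chosen after seeing the data, leaving out a clone gave 5 to 6 and 3 to 5. There 3329 to 3362 and 2392 to 2517 of all transcripts passed. The block changed no member's call in the total RPFs. The other alternatives, all without the block in the IP comparisons, stayed within 1.5 times of the main value. Over all tested transcripts the block moved the calls from 572 to 4154 and from 313 to 3128, removing the length trend gave 161 and 7, and in the comparison of the lines the 57 calls became 0 without the block, 150 without the limit on size, 11 with DESeq2 and 28 with the length trend removed.

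Signs changed for these uncalled values. With the length trend removed, without and with the block, *Dynll1* had -0.045 and -0.046, *Dynlrb1* -0.020 and -0.024 and *Dctn1* 0.028 and 0.021 in *Rps27-FLAG*, and *Dynll2* had -0.038 and -0.052, *Dynlrb1* -0.055 and -0.050 and *Dync1i2* 0.020 and 0.022 in *Rps27l-FLAG*. There *Dync1i2* also had 0.031 with DESeq2, 0.031 with its size factors, 0.020 with TMM over all libraries, 0.00029 with CPM over 2 in at least 3 libraries, and -0.012 to 0.0099 when a clone was left out, and *Dync1li2* had 0.0085 with DESeq2, 0.0086 with its size factors, and -0.074 to 0.043 when a clone was left out. In the comparison of the lines *Dctn2* had 0.0015 with DESeq2, 0.0012 with its size factors, 0.0034 with TMM over all libraries and 0.010 with the length trend removed. Leaving out a clone there gave -0.024 to 0.025 for *Dctn2*, -0.307 to 0.229 for *Dynlt3*, -0.096 to 0.023 for *Dync1li1* and -0.130 to 0.0081 for *Dynlrb1*. In the total RPFs it gave -0.035 to 0.128 for *Dync1h1* in *Rps27-FLAG* against WT and -0.012 to 0.368 for *Dynll2* between the tagged lines. Over all alternatives, values on both sides of 0 were seen for 4 of the 10 members in each comparison with WT and for 5 of 10 between the tagged lines. The cause was not tested. Before the length trend was removed, *Dynll1*, *Dynlrb1* and *Dctn1* had passed the threshold with the block in *Rps27-FLAG*, and *Dynlrb1* in *Rps27l-FLAG*.

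The fits of IP against total without a block rest on 3 clones, and leaving out 1 of them ended every call in 4 of 6 fits. *Dynlt3* had 11 to 49 counts in a library.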
